A study of Homo sapiens with 12 samples.

Results

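FOXA1, HOXB13, GATA2, GATA3, GRHL2, CREB3L4, SOX9, ONECUT2 and HOXA13 are transcription factors that set or mark the luminal lineage of the prostate, and their transcripts were followed in LNCaP cells, an established androgen-dependent prostate cancer line. The 9 genes were found by matching their symbols to the Ensembl identifiers of the count files, which list 63677 identifiers. All 9 were listed. Poly(A) RNA had been sequenced from a TALEN control line, which carried a vector control, and from a Bag-1L KO line, in which a TALEN (an engineered nuclease) removed the start codon of Bag-1L, the longest protein made from BAG1. The KO line came from single-cell cloning, so the KO and the particular clone cannot be told apart, and the start codons of the shorter BAG1 proteins were left intact. Each line was grown in full medium with serum (FM), or was hormone-depleted in charcoal-treated serum for 72 h and then given ethanol vehicle (EtOH) or 10 nM dihydrotestosterone (DHT), an androgen, for 16 h. The 6 groups had 2 replicates each, 12 libraries in all.

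Lineage factors help to set which enhancers a luminal cell uses and how it answers hormone. FOXA1 and GATA2 are pioneer factors, which bind closed chromatin and open it for other factors. HOXB13 is a posterior homeobox factor that marks the prostate epithelium and binds many of the same enhancers, GRHL2 maintains epithelial identity, and CREB3L4 is a bZIP factor anchored in the endoplasmic reticulum membrane that is abundant in prostate epithelium. ONECUT2 is a homeobox factor of the CUT class, SOX9 acts in the budding prostate, GATA3 in luminal differentiation, and HOXA13 in the patterning of the urogenital tract.

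Gene counts per library summed to between 20826843 and 30354666, at which 3 counts, taken as the floor of detection, are between 0.0988 and 0.144 CPM (counts scaled to the library total). The replicates of control EtOH were the least alike: over the 11374 genes whose normalized counts averaged 100 or more, the median absolute difference was 0.238 on the log2 scale, against 0.0765 in KO FM, the most alike. The mean BAG1 normalized count was 1147 in KO and 2202 in control in EtOH, 1095 in KO and 2415 in control with DHT, and 1514 in KO and 2042 in control in FM. All 10 luminal markers averaged 100 normalized counts or more, and their summed count was between 57731 and 68612 in the EtOH libraries of both lines and between 113544 and 129441 with DHT. In FM it was 74652 to 75296 in control and 100201 to 109738 in KO. None of the 7 basal markers reached that mean, and KRT5 (0 to 3.0) and TP63 (0.9 to 3.8) were near 0 in every library. The basal sum was 28 to 30 in control FM and 65 to 91 in KO FM. Of the 8 neuroendocrine markers 1 reached it, ENO2, and the summed count was 240 to 267 in control EtOH against 456 to 471 in KO EtOH, with CHGA (0 to 5.5) and INSM1 (0 to 3.2) near 0. Of the 7 stromal markers 2 reached it, COL1A1 and ACTA2, with sums of 1689 to 1754 in control DHT and 829 to 973 in KO DHT, and COL1A2 (0 to 5.7) near 0. None of the 4 immune markers reached it. The part of these marker levels in the results for the lineage factors was not tested.

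The lineage factors fell into 6 that were clearly above the floor, of which ONECUT2 was the lowest, and 3 at or near the floor. Counts summed over the 12 libraries were 127183 for FOXA1, 79744 for HOXB13, 64093 for CREB3L4, 58012 for GRHL2, 50809 for GATA2 and 5693 for ONECUT2. GATA3 had 20 counts in all, with at most 6 in a library. SOX9 and HOXA13 had 1 count each, SOX9 in the second control DHT library and HOXA13 in the second KO EtOH library. The floor covers counting error only, and no change of these 3 genes was detectable at this depth in any comparison. GATA3 passed the filter of 10 counts over all libraries together with the 6 expressed factors, but DESeq2 gave it no adjusted p because its counts were too low, so tests refer to 6 of the 9 factors.

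Levels of different genes were compared per length, as FPKM (gene counts scaled to the exon length and the library total). Over the 12 libraries FOXA1 lay between 75.2 and 116 FPKM, HOXB13 between 50.8 and 110 FPKM, and CREB3L4 between 40.1 and 110 FPKM. Below them were GATA2, between 22.3 and 49.5 FPKM, and GRHL2, between 16.8 and 48.1 FPKM. ONECUT2, whose annotated exons span 16546 bases, lay between 0.662 and 1.55 FPKM. The order of the levels was not the same in every condition. HOXB13 was first in control EtOH (89.9 ± 5.3 FPKM, SD, n = 2), but its replicates overlapped those of FOXA1 (83.7 ± 11.9 FPKM, SD, n = 2), and the same pair overlapped in control FM. In KO EtOH and KO FM HOXB13 lay above FOXA1 with no overlap. In control DHT CREB3L4 came first (108 ± 3.3 FPKM, SD, n = 2), above FOXA1 (92.4 ± 6.2 FPKM) and HOXB13 (57.4 ± 9.3 FPKM), whereas in KO DHT it came after FOXA1 and HOXB13 (81.3 ± 1.8 FPKM, SD, n = 2). GATA2 lay above GRHL2 in both EtOH groups and below it in all 4 groups with DHT or FM. With the longest annotated transcript in place of all exons as the length, the 1750-base CREB3L4 transcript kept that gene first in control DHT and raised it to the first place in both FM groups, and the full order held in 1 of the 6 groups. With that length FOXA1 lay above HOXB13 in every group, at 129.2 against 108.7 FPKM in KO EtOH and 116.7 against 101.2 FPKM in KO FM. CREB3L4 then lay above HOXB13 in KO DHT.

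**Figure D1:**
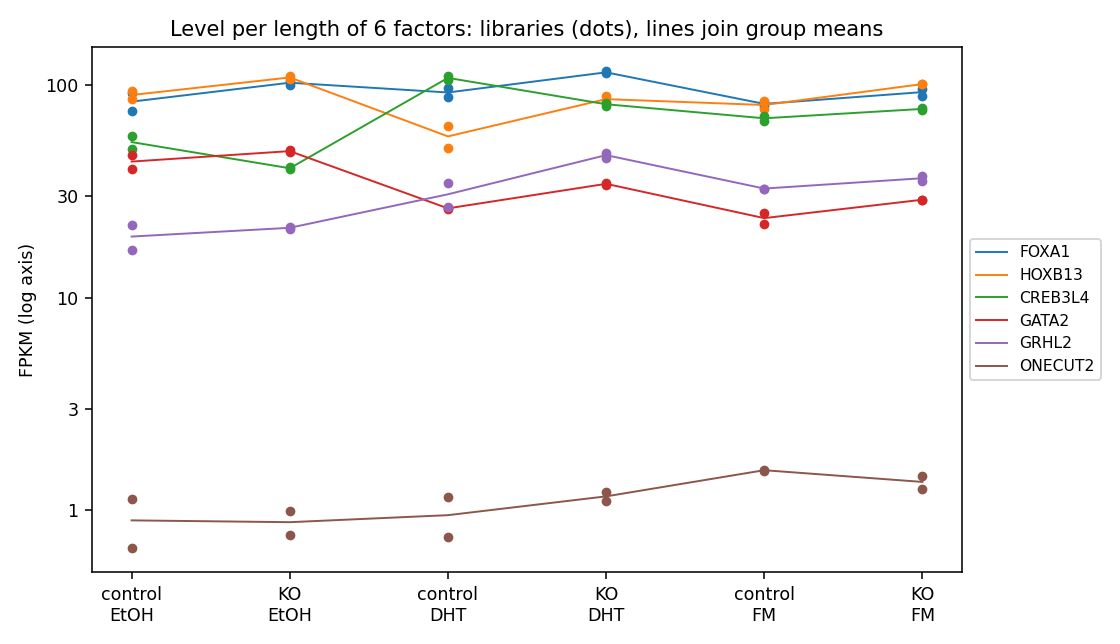
Level per length of the 6 expressed factors, in FPKM on a log axis, in the 6 groups; dots are libraries (2 per group) and lines join group means to help follow a gene, not to show a course in time. CREB3L4 rises to 108 FPKM in control DHT, GATA2 and GRHL2 change places between EtOH and the other conditions, and ONECUT2 stays at or below 1.55 FPKM.

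FOXA1 was the steadiest of the expressed factors. Its group means spanned 1.39-fold, from control EtOH to KO DHT, and 29.9% of the 11374 genes averaging 100 normalized counts or more spanned less. CREB3L4 spanned most, 3.05-fold, from KO EtOH to control DHT, a range wider than that of 92.7% of those genes. The span was 2.45-fold for GRHL2, 1.91-fold for ONECUT2, 1.90-fold for GATA2 and 1.66-fold for HOXB13, beside a median of 1.55-fold over all of those genes.

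The response to DHT was determined first, as DHT against EtOH within each line. RNA came from whole cultures, so fewer cells with a transcript and less of it per cell cannot be told apart. A gene was taken to pass when the DESeq2 adjusted p was at most 0.05 and the fold change at least 1.5. In control cells 3 of the 6 tested factors passed, CREB3L4 and GRHL2 higher and GATA2 lower, where 11.4% of all 17535 genes tested passed. In KO cells 2 of 6 passed, CREB3L4 and GRHL2, again higher, where 7.68% of all tested genes passed. A difference in DHT response between the lines did not pass for any of the 6. In that interaction contrast, which asks whether the response in KO departs from that in control, DESeq2 and edgeR each called 0 of the 6 factors, 1 (GRHL2) had an unadjusted p under 0.05, and 0.408% of all tested genes passed.

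**Figure D2:**
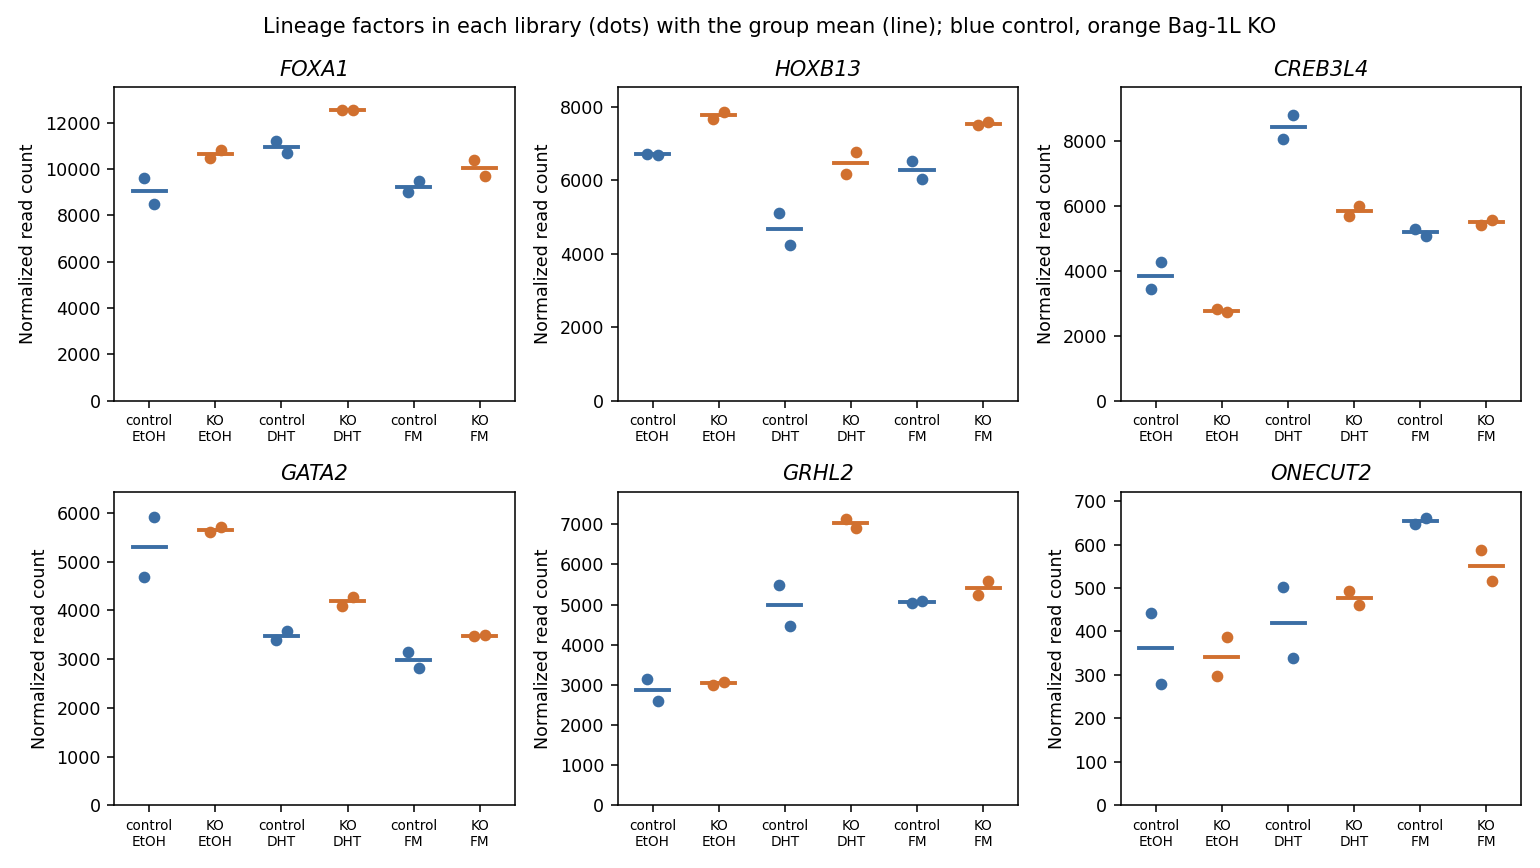
Normalized read counts (linear axis from 0) of the 6 expressed factors in each library; dots are libraries, lines are means of 2, blue is control and orange is Bag-1L KO. CREB3L4 and GRHL2 are above their EtOH libraries in every DHT and FM library of the same line, and GATA2 is below.

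CREB3L4 (ENSG00000143578, GRCh37 chromosome 1, 153940010 to 153946837, plus strand) rose most. Normalized counts of 3432 and 4290 with EtOH became 8090 and 8820 with DHT in control. In KO they were 2813 and 2736 in EtOH and 5688 and 6008 in DHT. All DHT libraries lay above all EtOH libraries, and in each of these conditions both KO libraries lay below both control libraries. The rise was 2.19-fold in control (log2 fold change 1.13, standard error 0.12, DESeq2 adjusted p = 3.12e-20) and 2.11-fold in KO (1.08, standard error 0.12, DESeq2 adjusted p = 4.95e-18). The difference between these responses was -0.06 on the log2 scale, with a 95% interval from -0.38 to 0.27. Because 12.9% of the CREB3L4 exon bases are also exon bases of genes on the opposite strand, and the strand setting of the counting is not given in the sources used here, reads in that stretch could have been left out as ambiguous. SLC39A1 and JTB, which overlap it, changed by 0.40 and 0.12 with DHT in control on the log2 scale and did not pass.

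Promoters were read from RefSeq on GRCh38.p14 for CREB3L4 and GATA2, whose levels changed with hormone, to show the sequence next to their start sites. Windows of GRHL2 and ONECUT2, which also passed in a DHT or FM response, are not shown. Windows were read for 6 of the 9 factors, and GRHL2 was not among these. The 250 bases before the start were searched on both strands, and the share of all 35116 promoter windows of this length that hold each motif is given for comparison. The core hexamer of the androgen response element, AGAACA, was present in 12.4% of all windows. A forkhead motif, TGTTTAC, was present in 3.0% of them. The GATA motif searched was AGATAA, which 9.2% of the windows held. The GC box, GGGCGG, was the most frequent and was found in 42.6%. The CCAAT box, searched by the letters of its name, was found in 32.0%, and the TATA box, searched as TATAAA, in 10.7%. The CREB3L4 window, chr1:153968000-153968249 on the plus strand, held 1 match, a GC box 55 bases before the start, in capitals. It contained 52.0% G and C, beside a median of 58.0% over all windows.
CREB3L4: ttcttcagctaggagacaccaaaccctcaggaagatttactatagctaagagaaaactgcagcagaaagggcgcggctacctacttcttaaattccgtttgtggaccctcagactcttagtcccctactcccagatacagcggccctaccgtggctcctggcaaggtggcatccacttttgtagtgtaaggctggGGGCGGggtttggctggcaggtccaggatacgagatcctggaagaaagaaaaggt

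GRHL2 (ENSG00000083307, GRCh37 chromosome 8, 102504667 to 102681954, plus strand) also rose. Normalized counts of 3150 and 2593 with EtOH became 5492 and 4468 with DHT in control. In KO they were 3000 and 3072 in EtOH and 7138 and 6915 in DHT. The EtOH libraries of both lines lay in 1 range, and with DHT the KO libraries lay above the control libraries. The rise was 1.73-fold in control (log2 fold change 0.79, standard error 0.13, DESeq2 adjusted p = 1.14e-08) and 2.31-fold in KO (1.21, standard error 0.13, DESeq2 adjusted p = 1.05e-19). The response in KO exceeded that in control by 0.42 on the log2 scale, with a 95% interval from 0.07 to 0.77, and this difference did not pass after adjustment over all genes (unadjusted p = 0.0202, DESeq2 adjusted p = 0.844).

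GATA2 (ENSG00000179348, GRCh37 chromosome 3, 128198270 to 128212044, minus strand) moved the other way. Control libraries had 4678 and 5915 normalized counts with EtOH and 3385 and 3579 with DHT. In KO they were 5604 and 5711 in EtOH and 4085 and 4281 in DHT. DHT libraries lay below EtOH libraries in both lines, with no overlap. The fall was 1.52-fold in control (log2 fold change -0.60, standard error 0.12, DESeq2 adjusted p = 1.12e-05), just past the fold minimum, and 1.35-fold in KO (-0.44, standard error 0.12, DESeq2 adjusted p = 0.00411), short of it. The control value was -0.43 without the second control EtOH library and -0.56 without the first control DHT library, both short of the minimum. The antisense transcript GATA2-AS1, which overlaps GATA2 on the other strand, had -0.41 in control and -0.32 in KO on the log2 scale and did not pass.

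Counts do not separate the start sites of GATA2, for which RefSeq gives 2, and both windows are shown since either could contribute to the fall. The distal window, chr3:128493202-128493451 on the minus strand, had 1 match, a GC box 73 bases before the start. The proximal window, chr3:128488531-128488780 on the minus strand, had 1 match, a CCAAT box 83 bases before the start. Both matches read on the opposite strand and are in capitals. The windows held 72.8% and 71.2% G and C. Neither held the androgen response element hexamer, the forkhead motif or the GATA motif, nor did the CREB3L4 window.
GATA2 distal: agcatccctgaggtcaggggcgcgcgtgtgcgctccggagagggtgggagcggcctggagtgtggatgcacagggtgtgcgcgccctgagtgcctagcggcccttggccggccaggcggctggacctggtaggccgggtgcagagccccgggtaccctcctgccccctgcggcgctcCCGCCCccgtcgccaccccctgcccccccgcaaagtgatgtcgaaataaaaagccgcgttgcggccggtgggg
GATA2 proximal: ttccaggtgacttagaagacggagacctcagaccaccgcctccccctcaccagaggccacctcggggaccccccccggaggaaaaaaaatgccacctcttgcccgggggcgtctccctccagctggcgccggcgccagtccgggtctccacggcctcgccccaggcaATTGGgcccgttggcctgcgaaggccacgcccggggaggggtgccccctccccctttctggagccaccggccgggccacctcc

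HOXB13, FOXA1 and ONECUT2 moved less with DHT. HOXB13 (ENSG00000159184, GRCh37 chromosome 17, 46802125 to 46806112, minus strand) had normalized counts of 6724 and 6682 with EtOH and 5120 and 4245 with DHT in control. In KO its counts were 7673 and 7868 in EtOH and 6170 and 6778 in DHT. DHT libraries were the lower ones in both lines. The log2 fold change was -0.52 in control (standard error 0.11, DESeq2 adjusted p = 4.87e-05), under the fold minimum, and -0.26 in KO (standard error 0.11, DESeq2 adjusted p = 0.104). The control value was -0.66, past the fold minimum, without the first control DHT library and -0.39 without the second.

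FOXA1 (ENSG00000129514, GRCh37 chromosome 14, 38058757 to 38065264, minus strand) had normalized counts of 9603 and 8479 with EtOH and 11236 and 10683 with DHT in control. In KO it had 10467 and 10851 with EtOH and 12569 and 12559 with DHT. The DHT libraries lay above the EtOH libraries of the same line. The log2 fold change was 0.28 in control (standard error 0.10, DESeq2 adjusted p = 0.0269) and 0.24 in KO (standard error 0.10, DESeq2 adjusted p = 0.0936), both under the fold minimum. ONECUT2 (ENSG00000119547, GRCh37 chromosome 18, 55102606 to 55158530, plus strand) had 442 and 280 normalized counts with EtOH and 502 and 339 with DHT in control, where the groups overlapped. In KO it had 297 and 387 in EtOH and 492 and 461 in DHT, which did not overlap. The log2 fold change was 0.22 in control (standard error 0.22, DESeq2 adjusted p = 0.585) and 0.48 in KO (standard error 0.22, DESeq2 adjusted p = 0.157). With 1 library left out the control value ran from -0.09 to 0.59, the latter past the fold minimum and without the first control EtOH library.

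**Figure D3:**
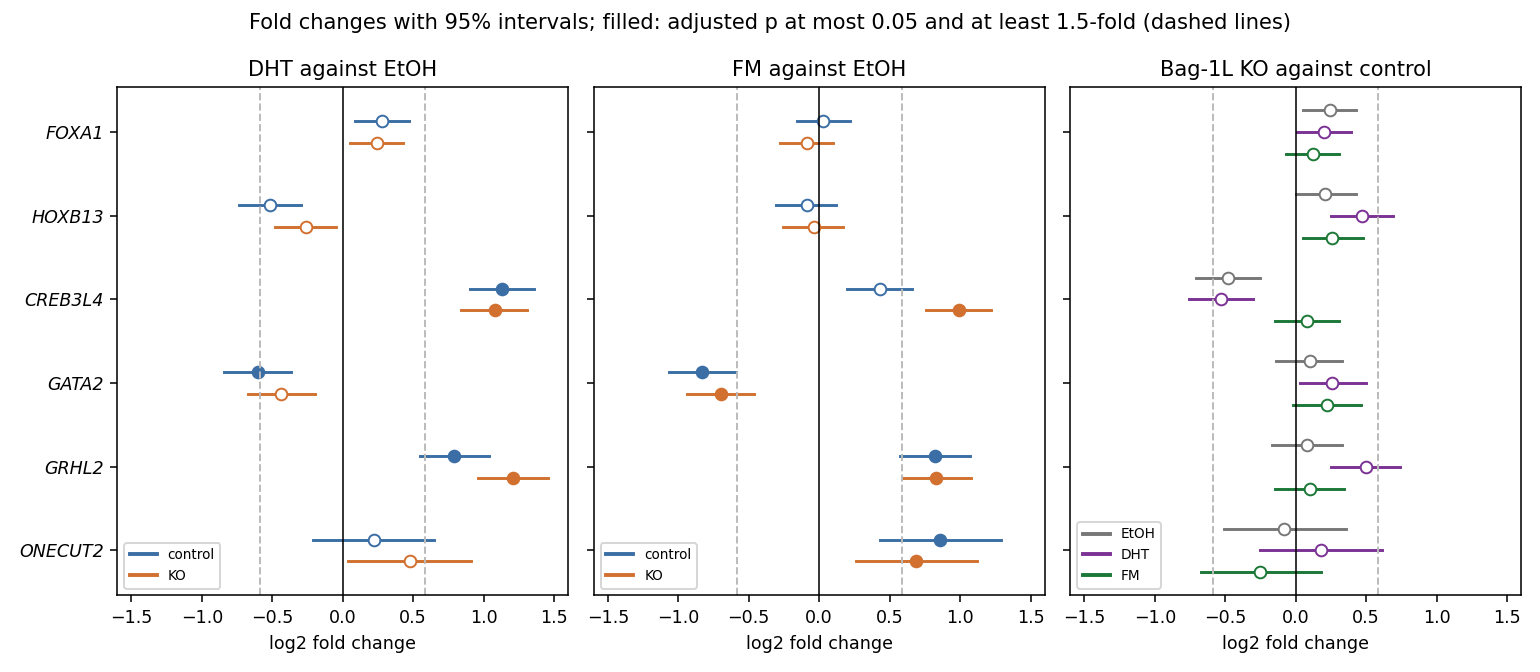
Log2 fold changes (points) of the 6 expressed factors with 95% intervals (lines); filled points have an adjusted p of at most 0.05 and at least a 1.5-fold change, and dashed lines mark that fold change. CREB3L4 and GRHL2 lie to the right with DHT in both lines, GATA2 lies to the left with DHT and FM, and no point is filled for KO against control.

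Full medium holds serum androgens and other serum factors, and FM was compared with EtOH in each line. These contrasts use the same EtOH libraries as the DHT contrasts, so their values are given side by side and not as separate evidence. In control 3 of 6 tested factors passed, GRHL2 and ONECUT2 higher and GATA2 lower, where 21.3% of the 18549 tested genes passed. In KO 4 of 6 passed, GRHL2, ONECUT2 and CREB3L4 higher and GATA2 lower, where 19.3% passed.

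GRHL2 had 5032 and 5097 normalized counts in control FM and 5248 and 5583 in KO FM, all above every EtOH library. Its log2 fold change was 0.82 in control (DESeq2 adjusted p = 2.02e-09), beside 0.79 with DHT, and 0.83 in KO (DESeq2 adjusted p = 8.10e-10), beside 1.21 with DHT. GATA2 had 3142 and 2826 in control FM and 3468 and 3497 in KO FM, all below every EtOH library. The log2 fold change of GATA2 was -0.83 in control (DESeq2 adjusted p = 2.17e-10) and -0.70 in KO (DESeq2 adjusted p = 1.07e-07).

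ONECUT2 reached its highest counts in FM, 648 and 661 in control and 588 and 515 in KO, above all EtOH libraries of either line. The log2 fold change was 0.86 in control (standard error 0.22, DESeq2 adjusted p = 0.000524) and 0.69 in KO (standard error 0.22, DESeq2 adjusted p = 0.00792). The control value fell to 0.57, under the minimum, without the second control EtOH library. The KO value was 0.59 (DESeq2 adjusted p = 0.111) without the first KO FM library and 0.51 (DESeq2 adjusted p = 0.152) without the first KO EtOH library.

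CREB3L4 had 5296 and 5097 normalized counts in control FM and 5415 and 5585 in KO FM, so that the lines were close in FM although KO was the lower line in EtOH. Its log2 fold change was 0.43 in control (standard error 0.12, DESeq2 adjusted p = 0.00135), under the fold minimum, and 0.99 in KO (standard error 0.12, DESeq2 adjusted p = 1.66e-15). The 2 responses differed by 0.56 on the log2 scale (95% interval 0.23 to 0.88, DESeq2 adjusted p = 0.0507), short of both limits. With 1 library left out that difference ran from 0.39 to 0.71, the latter past the fold minimum and without the first control EtOH library. For the difference in FM response DESeq2 and edgeR each called 0 of the 6 factors, 1 (CREB3L4) had an unadjusted p under 0.05, and 1.39% of all tested genes passed. HOXB13, with 6529 and 6040 in control FM and 7492 and 7592 in KO FM, and FOXA1, with 9007 and 9479 in control FM and 10383 and 9686 in KO FM, had log2 fold changes between -0.09 and 0.03 against EtOH and did not pass in either line.

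Loss of Bag-1L was then examined within each condition. No factor changed by at least 1.5-fold between KO and control. In EtOH DESeq2 and edgeR each called 0 of 6, with 2 at an unadjusted p under 0.05 and 5.11% of all tested genes passing. With DHT both called 0 of 6, with 5 at an unadjusted p under 0.05 and 7.98% of all tested genes passing. In FM both called 0 of 6, with 1 at an unadjusted p under 0.05 and 8.01% of all tested genes passing. Of the 6 factors, 1 had an adjusted p of at most 0.05 in EtOH, 3 had with DHT and none had in FM.

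CREB3L4 was lower in KO in EtOH, with a log2 difference of -0.48 (95% interval -0.71 to -0.25, DESeq2 adjusted p = 0.00139), and with DHT, with -0.53 (-0.76 to -0.30, DESeq2 adjusted p = 0.000121). In FM the difference was 0.08 (-0.15 to 0.31). GRHL2 was higher in KO with DHT by 0.50 (0.25 to 0.74, DESeq2 adjusted p = 0.00129), and the differences of 0.08 in EtOH (-0.17 to 0.33) and 0.10 in FM (-0.15 to 0.34) did not pass. HOXB13 was higher in KO with DHT by 0.47 (0.25 to 0.69, DESeq2 adjusted p = 0.000513), with 0.21 (-0.00 to 0.43) in EtOH and 0.26 (0.05 to 0.48) in FM, which did not pass. These differences stay below the fold minimum of 0.585 on the log2 scale, but 1 library decides some of them. With 1 library left out, the differences with DHT ran from 0.36 to 0.65 for GRHL2 and from 0.34 to 0.61 for HOXB13. For CREB3L4 they ran from -0.60 to -0.47. The largest change of each gene was without the first control DHT library and lay past the fold minimum. In EtOH the CREB3L4 difference ran from -0.63, past the minimum and without the first control EtOH library, to -0.31.

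The other factors did not pass adjustment between the lines in any condition. FOXA1 had log2 differences of 0.24 in EtOH, 0.20 with DHT and 0.12 in FM, with KO libraries above control libraries in all 3 conditions. For GATA2 the differences were 0.10 in EtOH, 0.26 with DHT and 0.22 in FM. ONECUT2 gave -0.08 in EtOH, 0.18 with DHT and -0.25 in FM, and its intervals, from -0.51 to 0.36 in EtOH, from -0.25 to 0.61 with DHT and from -0.67 to 0.18 in FM, reach past the fold minimum with DHT and in FM.

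Genes that neighbour the factors within 20 kb were examined to see whether a change was shared along the chromosome. HOXB13 stands at the end of the HOXB cluster beside PRAC1 and PRAC2, small genes known for their expression in prostate and distal colon. PRAC1 lies 2245 bases away on the same strand. In control it had 1108 and 1571 normalized counts with EtOH, 644 and 780 with DHT and 655 and 644 in FM. In KO it had 2076 and 1798 in EtOH, 1140 and 1251 with DHT and 1209 and 1231 in FM. KO libraries lay above control libraries in each condition, and EtOH was the highest condition in both lines.

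PRAC1 fell with DHT by 0.91 in control (DESeq2 adjusted p = 6e-07) and by 0.70 in KO (DESeq2 adjusted p = 0.000291) on the log2 scale. In FM, where HOXB13 had -0.09 and -0.04, PRAC1 fell by 1.04 in control (DESeq2 adjusted p = 3.77e-09) and by 0.67 in KO (DESeq2 adjusted p = 0.000243). The last value was -0.56, under the minimum, without the first KO EtOH library. KO exceeded control by 0.75 with DHT (DESeq2 adjusted p = 0.000124) and by 0.91 in FM (DESeq2 adjusted p = 2.15e-06), and in EtOH the difference of 0.53 (DESeq2 adjusted p = 0.0139) stayed under the fold minimum. PRAC2 lies 5 bases from HOXB13 on the opposite strand and is scarce, with 65.6 to 171 normalized counts. It passed only for KO against control in FM (0.86, DESeq2 adjusted p = 0.00673). That call was lost without the second control FM library (0.59), the first KO FM library (0.94) or the second KO FM library (0.78).

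**Figure D4:**
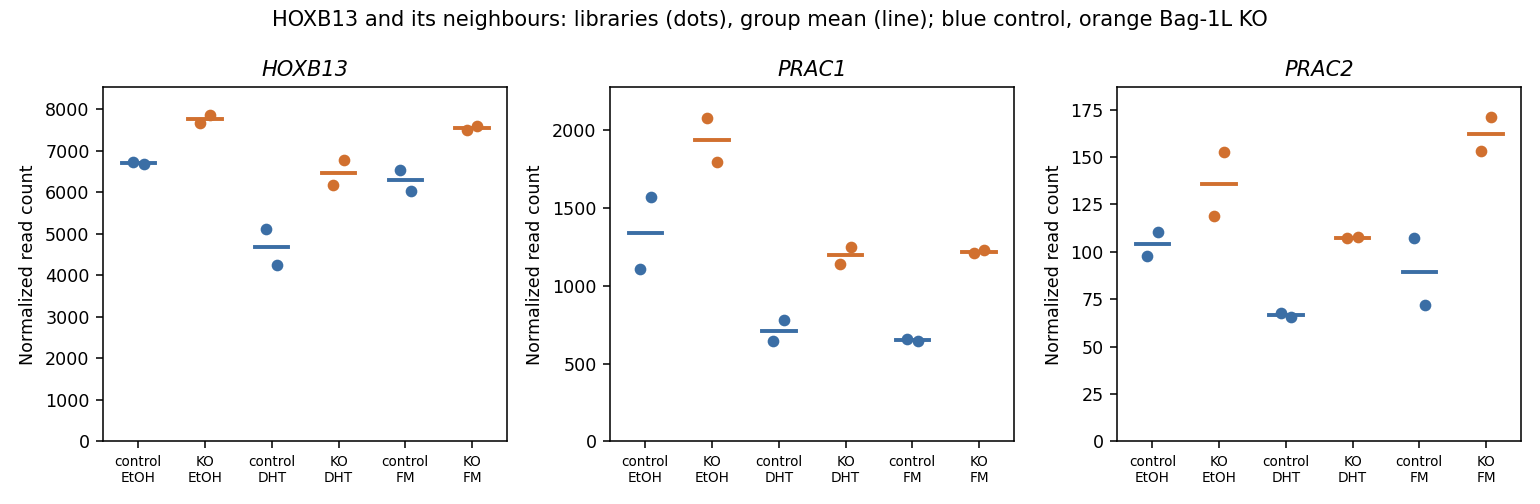
Normalized read counts (linear axes from 0, a scale for each gene) of HOXB13 and its neighbours PRAC1 and PRAC2 in each library; dots are libraries, lines are means of 2, blue is control and orange is Bag-1L KO. In each condition the KO libraries of all 3 genes lie above the control libraries, and PRAC1 is lower with DHT and FM than with EtOH.

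TTC6 overlaps FOXA1 on the opposite strand. It was higher in KO by 0.63 on the log2 scale in EtOH (DESeq2 adjusted p = 3.48e-06) and by 0.74 with DHT (DESeq2 adjusted p = 8.34e-09), where FOXA1 had 0.24 and 0.20. The EtOH value fell under the minimum without the second control EtOH library (0.53) or the second KO EtOH library (0.58). Only 0.4% of the FOXA1 exon bases are shared with other genes. GATA2-AS1 passed only for FM against EtOH in KO, at -0.65 (DESeq2 adjusted p = 0.000101), beside -0.70 for GATA2, and not without the second KO EtOH library (-0.46, DESeq2 adjusted p = 0.0602).

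The genes whose levels followed each factor most closely were ranked over the 12 libraries by the root mean square difference of centred log2 normalized counts, among 10448 protein-coding genes averaging 100 normalized counts or more. This distance is a description, with no test. For FOXA1 the nearest were CYB561D1 (0.052) and TMBIM1 (0.067), and KCNAB2 (0.087) was among the nearest to HOXB13. For CREB3L4 they were RUSC1 (0.064) and CAPZB (0.102), for GATA2 PPM1M (0.091) and SSBP3 (0.092), for GRHL2 ITGAV (0.126) and SLC26A2 (0.128), and for ONECUT2 NFATC2IP (0.085) and NUP188 (0.087). Over all those genes the median distance was between 0.303 for FOXA1 and 0.546 for CREB3L4. Among the factors themselves HOXB13 and FOXA1 were closest (0.321), followed by HOXB13 and GATA2 (0.325) and by GRHL2 and ONECUT2 (0.351), and CREB3L4 and GATA2 were farthest apart (0.786).

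Family members of the factors showed which paralogue was present. SOX4 had 3670 to 6645 normalized counts while SOX9 was at the floor. CREB3 (30.3 to 53.5 FPKM) and CREB3L2 (6.09 to 12.8 FPKM) accompanied CREB3L4, GRHL1 was at 1.15 to 2.82 FPKM beside GRHL2, and HOXC13 at 6.19 to 27.5 FPKM was the most abundant HOX gene after HOXB13. Of the 26 paralogues 9 averaged 100 normalized counts or more. With DHT 1 of 15 tested paralogues passed higher (GRHL1) and 4 lower (SOX8, HOXC13, GATA6 and TRPS1) in control (median log2 fold change -0.148, beside -0.017 over all tested genes, of which 11.4% passed), and 1 higher (CREB3L2) and 3 lower (HOXC13, TRPS1 and GATA6) in KO (-0.105, beside -0.014 and 7.68%). GATA6 averaged 70.7 normalized counts. HOXC13 fell by 0.86 in control (DESeq2 adjusted p = 4.47e-10) and by 1.19 in KO (DESeq2 adjusted p = 9.2e-20). TRPS1, an atypical GATA-family repressor, fell by 0.76 in control (DESeq2 adjusted p = 0.0106) and by 1.05 in KO (DESeq2 adjusted p = 9.07e-05), and the control call was lost without the first control EtOH library (-0.41) or either control DHT library (DESeq2 adjusted p = 0.0532 and 0.0955).

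For FM against EtOH, 3 of 17 tested paralogues passed higher (SOX6, GRHL1 and CREB3L2) and 4 lower (GATA5, SOX8, HOXC13 and TRPS1) in control (median -0.309, beside -0.009 over all tested genes, of which 21.3% passed), and 3 higher (GATA4, CREB3L2 and GRHL1) and 5 lower (GATA5, HOXC13, TRPS1, SOX8 and SOX4) in KO (-0.628, beside -0.007 and 19.3%). GATA4, GATA5 and SOX6 were scarce, averaging 6.0, 8.9 and 40.8 normalized counts over the 12 libraries. GRHL1 rose by 1.01 in control (DESeq2 adjusted p = 1.57e-08), and HOXC13 had -1.53 in control (DESeq2 adjusted p = 1.36e-29) and -1.84 in KO (DESeq2 adjusted p = 4e-44). Between KO and control, 2 of 13 passed higher in EtOH, SOX6 and TRPS1 (median 0.350, beside -0.015 and 5.11% of all tested genes). SOX8 alone passed higher with DHT (median 0.168, beside -0.018 and 7.98%) and in FM (median 0.026, beside -0.014 and 8.01%). SOX8 was no longer called with DHT without the first control library (0.53) or either KO library, nor in FM without the second control library (0.62) or either KO library, and TRPS1 in EtOH was not called without the second control library (0.50) or either KO library. In the contrasts of the DHT and FM responses between the lines DESeq2 and edgeR each called 0 paralogues, with 2 and 5 at an unadjusted p under 0.05 and medians of -0.211 and 0.044, beside -0.004 and 0.012 over all tested genes.

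The 37 other genes of the 4 HOX clusters were mostly silent. Of them 19 averaged under 1 normalized count, and the 5 averaging 100 or more were HOXC13, HOXC6, HOXC9, HOXB7 and HOXB9. HOXC8 and HOXC4 were scarce, averaging 20.8 and 21.2. With DHT none of 9 tested passed higher and 4 passed lower in control, HOXC8, HOXC9, HOXB9 and HOXC13 (median -0.857, beside -0.017 over all tested genes, of which 11.4% passed), and 3 passed lower in KO, HOXC9, HOXC13 and HOXB9 (-0.583, beside -0.014 and 7.68%). The HOXB9 call in KO was lost without any single library of the 4 compared (DESeq2 adjusted p from 0.0933 to 0.319), and that in control without the first control DHT library (-0.79, DESeq2 adjusted p = 0.0921). HOXC9 fell by 1.33 in control (DESeq2 adjusted p = 3.83e-13) and by 1.62 in KO (DESeq2 adjusted p = 1.01e-20). With FM 4 of 9 passed lower in control, HOXC8, HOXC9, HOXC4 and HOXC13 (median -0.339, beside -0.009 over all tested genes, of which 21.3% passed). In KO 3 passed lower, HOXC8, HOXC9 and HOXC13 (-0.916, beside -0.007 and 19.3%), and none passed higher in either line. HOXC9 fell by 2.13 in control and by 2.06 in KO (DESeq2 adjusted p = 8.48e-29 and 8.83e-31). Between KO and control HOXC4 alone passed, higher with DHT (median of the list 0.384, beside -0.018 over all tested genes). Of all tested genes 7.98% passed with DHT, 5.11% in EtOH and 8.01% in FM. DESeq2 and edgeR each called 0 HOX genes in EtOH (2 at an unadjusted p under 0.05, median 0.291), in FM (3 at an unadjusted p under 0.05, median 0.121), for the difference in DHT response (0 of 5 at an unadjusted p under 0.05, median 0.032) and for the difference in FM response (0 of 5, median 0.074).

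Of 27 factors known to work beside the lineage factors, 23 were tested with DHT. In control 5 passed higher and 2, RUNX2 and MYC, lower (median -0.019, beside -0.017 over all tested genes, of which 11.4% passed). In KO 5 passed higher and 2, PGR and ELF3, lower (0.131, beside -0.014 and 7.68%). KLF5, a zinc finger factor of epithelia, rose by 2.46 in control and by 3.07 in KO (DESeq2 adjusted p = 8.02e-32 and 2.72e-38). RUNX1 rose by 3.24 in control (DESeq2 adjusted p = 5.71e-36) and by 1.87 in KO (DESeq2 adjusted p = 2.67e-11). SPDEF, an ETS factor of secretory epithelium, rose by 2.06 in control (DESeq2 adjusted p = 1.13e-38) and by 2.14 in KO (DESeq2 adjusted p = 1.53e-41).

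For FM against EtOH 8 of 23 partner factors passed higher and 3, ELF3, XBP1 and MYC, lower in control (median 0.312). Over all genes tested in that contrast 21.3% passed (median -0.009). In KO 6 partner factors passed higher and 3, PGR, ELF3 and XBP1, lower (0.066, beside -0.007 and 19.3%). Between KO and control, 1 of 22 passed higher (PGR) and 2 lower (KLF5 and E2F1) in EtOH (median -0.124, beside -0.015 and 5.11% of all tested genes). With DHT 3 of 21 passed, all lower (RUNX1, MEIS1 and ELF3, median -0.157, beside -0.018 and 7.98%). In FM 4 of 21 passed, all lower (RUNX1, MEIS1, NFIB and EHF, median -0.142, beside -0.014 and 8.01%). KLF5 in EtOH had an adjusted p of 0.0454 (DESeq2) and E2F1 had -0.64, and both calls were lost without the first KO EtOH library. E2F1 was at -0.36 (DESeq2 adjusted p = 0.0652) without the second control EtOH library. The KLF5 call was also lost without the first control EtOH library (-0.53), without the second KO EtOH library (DESeq2 adjusted p = 0.292), with the replicate block (DESeq2 adjusted p = 0.0509) and with only the samples compared (DESeq2 adjusted p = 0.598). RUNX1 was lower in KO with DHT by -1.32 (DESeq2 adjusted p = 1.14e-08) and in FM by -1.82 (DESeq2 adjusted p = 1.95e-13). The difference in DHT response passed for 1 of 20, RUNX1, lower in KO (median 0.058), beside 0.408% of all tested genes, and edgeR called 0. The RUNX1 call was lost with the replicate block (DESeq2 adjusted p = 0.0547) and in 7 of 8 fits with 1 library left out. The difference in FM response passed for 3 of 20, SPDEF higher and RUNX1 and NFIB lower (-0.152), beside 1.39% of all tested genes. Of these edgeR called 1, RUNX1. With 1 library left out, the SPDEF call was lost in 7 of 8 fits and the NFIB call in 5 of 8.

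With DHT 11.4% of all tested genes passed in control and 7.68% in KO (medians -0.017 and -0.014). Of the 12 corepressors and chromatin regulators, all tested, 1 passed higher and 2 lower with DHT in both lines (medians 0.070 in control and -0.003 in KO). TLE1 and TLE3, Groucho-family corepressors that FOXA1 can bind, were the ones lower, and KMT2D was the one higher, at 0.59 in control (DESeq2 adjusted p = 0.0158) and 0.60 in KO, with the control value under the minimum in edgeR (0.57) and at 0.32 without the second control EtOH library or 0.27 without the first control DHT library. The KO call was lost without the first KO EtOH library (0.49, DESeq2 adjusted p = 0.262) and without either KO DHT library (DESeq2 adjusted p = 0.167 and 0.0944). TLE3 fell by 1.20 in control (DESeq2 adjusted p = 7.24e-25) and by 0.69 in KO (DESeq2 adjusted p = 1.7e-08), and TLE1 fell by 0.71 and by 1.09 (DESeq2 adjusted p = 5.8e-07 and 2.36e-15). For FM against EtOH 2 passed higher, NCOR1 and EZH2, in both lines. TLE3 and TLE1 passed lower in control (median of the list 0.266) and TLE1, TLE3 and KMT2C in KO (0.230). Over all tested genes 21.3% passed in control and 19.3% in KO (medians -0.009 and -0.007). For KO against control the share was 5.11% in EtOH, 7.98% with DHT and 8.01% in FM. Between KO and control 3 passed lower in FM, NCOR1, TLE1 and KMT2C (median -0.209), and KMT2C (-0.59) was not called by edgeR (-0.57) or when any of the 4 FM libraries was left out. DESeq2 and edgeR each called 0 of 12 in EtOH (3 at an unadjusted p under 0.05, median -0.107), with DHT (4, median -0.140) and for the difference in DHT response (2, median 0.011). TLE1 alone passed for the difference in FM response (median of the list 0.035), beside 1.39% of all tested genes, and edgeR called 0 there. That call was lost in 7 of 8 fits with 1 library left out.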

How the data were processed

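The authors prepared stranded poly(A) libraries, mapped reads to GRCh37 with TopHat2 (2.0.11) and deposited HTSeq (0.5.3p3) read counts per Ensembl gene, without normalization, in a file per library, per the labels and the study's methods. The strand setting and Ensembl release are not given in the sources used here. Reads with several alignments (15.91% to 19.97% of reads) or overlapping several genes (6.90% to 7.97%) were not counted for any gene, and the 5 tally rows were left out. Symbols, positions and exon lengths came from GENCODE 44 on GRCh37, which held 55665 of the 63677 identifiers.

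Genes with at least 10 counts over the 12 libraries were fitted with DESeq2 (1.42.0, R 4.3.3) in a single fit with a coefficient per group, median-of-ratios size factors, Wald tests and unshrunken fold changes. Normalized counts are counts divided by the size factor. The fit was tested on simulated data. Adjustment (Benjamini-Hochberg) was over all genes tested in a comparison. The 9 comparisons were the DHT response and the FM response, both relative to EtOH, of either line, the 2 differences of these responses between control and KO, and KO against control in each condition. Alternatives were edgeR (4.0.16), TMM size factors, other filters, only the samples compared, no fold minimum, the replicate block and leaving out each library.

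The factors and lists (paralogues, HOX clusters, partner factors, chromatin regulators, cell type markers) were chosen with earlier results of these data known, and a few listed genes are not reported here. All factors were named, and of each list up to 3 genes per comparison with the largest passing change and an average of 100 normalized counts or more, or every gene where few passed. Labels number the replicates but do not say whether they came from separate cultures, so p-values measure the spread between these samples. Replicate counts differed by more than sampling noise in every group (chi-square over genes, from 3.19 to 36.46 for each degree of freedom).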

Additional observations from a re-analysis of the deposited data

Results flagged for a closer look

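An interaction contrast found responses of unequal size in control and KO among genes listed beside the lineage factors and for none of the 6 tested factors. For DHT, the response in KO was smaller than in control for RUNX1, by -1.37 on the log2 scale (DESeq2 adjusted p = 0.0357), a call that was not made by edgeR (adjusted p = 0.114), with TMM size factors (adjusted p = 0.0637), with the replicate block (adjusted p = 0.0547) or with only the samples compared (adjusted p = 0.424), and that was lost in 7 of 8 fits with 1 library left out, all but that without the second control EtOH library. SOX4, a relative of SOX9 singled out after its values were seen, had 0.19 with DHT in control and -0.35 in KO, a difference of -0.54 (DESeq2 adjusted p = 0.0297) that lies under the fold minimum. The adjusted p for SOX4 was 0.357 in edgeR, 0.0796 with TMM size factors, 0.0636 with the replicate block and 1.0 with only the samples compared. With 1 library left out the SOX4 difference ran from -0.65 without the first control EtOH library to -0.43 without the second. Only the former lay past the fold minimum, and all other such fits lay under it. For FM, RUNX1 differed by -1.88 (DESeq2 adjusted p = 0.00017) and NFIB by -0.67 (DESeq2 adjusted p = 0.00648). The NFIB call was not made by edgeR (adjusted p = 0.101) and was lost in 5 of 8 fits with 1 library left out (DESeq2 adjusted p from 0.0951 to 0.257). SPDEF differed by 0.81 (DESeq2 adjusted p = 0.0213, edgeR adjusted p = 0.0926) and TLE1 by -0.72 (DESeq2 adjusted p = 0.015, edgeR adjusted p = 0.0962). Both calls were lost in 7 of 8 fits with 1 library left out (DESeq2 adjusted p from 0.0908 to 0.333 for SPDEF, which had 0.51 without the second control EtOH library, and from 0.0643 to 0.31 for TLE1), and were kept only without the first control EtOH library.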

How the results depend on the processing

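With no fold change minimum 5 factors passed for DHT against EtOH in control, 1 for KO against control in EtOH and 3 for KO against control with DHT. With 1 library left out, the count of factors passing ran from 0 to 1 for KO against control in EtOH, from 0 to 3 with DHT and from 0 to 1 for the difference in FM response. Taking the longest transcript as the length kept the order of levels in 1 of 6 groups. The count of factors passing stayed within 1.5 times the value given in the report under 101 other combinations of comparison and setting, edgeR, TMM size factors and the filters included. Many of these belong to comparisons with a count of 0, where it stayed at 0. A change from 2 to 3 for DHT in KO with no fold minimum was also within that limit, which does not ask which factors passed. Among the other HOX genes edgeR called 5 in KO for DHT and 5 for FM, where DESeq2 called 3 and 3.

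Among the factors, signs turned only for values that had not passed, and only with 1 library left out. For ONECUT2 the log2 value ran from -0.09 to 0.59 for DHT in control, from -0.37 to 0.29 for KO against control in EtOH and from -0.07 to 0.49 with DHT, and the difference in response ran from -0.11 to 0.57 for DHT and from -0.54 to 0.12 for FM. GATA2 ran from -0.06 to 0.27 for KO against control in EtOH, from -0.01 to 0.33 for the difference in DHT response and from -0.05 to 0.29 for FM. GRHL2 ran from -0.05 to 0.23 for KO against control in EtOH and from -0.13 to 0.15 for the difference in FM response. FOXA1 ran from -0.13 to 0.05 for the difference in DHT response and from -0.05 to 0.13 for FM in control, CREB3L4 from -0.22 to 0.10 for the difference in DHT response, and HOXB13 from -0.01 to 0.10 for the difference in FM response. The cause was not tested.

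Replicate numbers are shared by all groups. Same-numbered libraries did not deviate together throughout, with a mean correlation of 0.033 over 15 pairs of groups and a range from -0.415 to 0.692, so the numbers were not taken as a pairing. The highest value was between control EtOH and control DHT, the groups of the DHT response in control. In KO the same 2 conditions had -0.214. A block shared by all groups cannot take up deviations that differ in sign between pairs. The replicate block left the factors that passed at 3 and 2 for DHT in control and KO, at 3 and 4 for FM, and at 0 in the other comparisons. With 2 libraries per group, changes of GATA3, SOX9 and HOXA13 lie beyond the depth of these data.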
